A study of Bos taurus with 9 samples.

Results

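Acetylated Pol II sites lost after butyrate were 6077 of the 56225 peaks called for RNA polymerase II (Pol II) on the nuclear chromosomes of control MDBK cells. The members were chosen by measured values. Each shared at least 1 bp with a control peak of H3K9ac or H3K27ac, 2 acetylations of histone H3, and shared no base with any Pol II peak of butyrate-treated cells. The 6077 were also a small share of the 673926 peaks of all 8 lists in the series. MDBK is an established epithelial cell line from cattle kidney. It was assayed by ChIP-seq, which sequences DNA pulled down with an antibody, with 4 antibodies (H3K9ac, H3K27ac, Pol II and H3K9me3). The control libraries carried no treatment, the treated ones came from cells given 5 mM butyrate for 24 h, and every group held 1 library. Controls ran in lane 4 and treated libraries in lane 5 of the sequencer, so that lane and treatment cannot be told apart.

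Pol II transcribes protein-coding genes, and its peaks tend to mark promoters, active gene bodies and enhancers. H3K9ac and H3K27ac are placed by histone acetyltransferases at active promoters and enhancers and removed by histone deacetylases. Butyrate, a short-chain fatty acid made by gut microbes, inhibits histone deacetylases. H3K9me3 is a mark of silenced heterochromatin and repeats.

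The words lost and kept refer to peak calls. A lost site had no butyrate Pol II peak over it, which does not show that the polymerase was absent. The lists carry positions without heights, and the read depth of the libraries was not used here. Between control and butyrate the nuclear lists went from 56225 to 31225 peaks for Pol II, from 94603 to 187465 for H3K27ac, from 74114 to 115104 for H3K9ac and from 25623 to 89478 for H3K9me3. The control Pol II library stood apart. Of its peaks, 13.4% lay at a control acetyl peak, against 64.3% of the butyrate Pol II peaks at a butyrate acetyl peak. Intervals below are 95% intervals that cover counting error only. Peaks of 1 library are not replicates, so no p-value is given and no difference could be set against a spread between libraries.

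Most acetylated Pol II sites lost their Pol II peak. Of 7513 control Pol II peaks with an acetyl peak, 6077 (80.9%, 80.0 to 81.8) had no butyrate counterpart and 1436 were kept. The background was 95.4% of all control Pol II peaks without a butyrate counterpart, and 97.6% of those without control acetylation. These shares restate the rule and were not tested. The lost sites were short, with a median of 229 bp (quartiles 199 and 285), against 252 bp at kept acetylated sites and 217 bp at lost sites without acetylation. The shortest length found in any list, 199 bp, made up 30.3% of them, and 111 (1.83%) reached 500 bp or more.

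Several lost sites illustrate the range, with coordinates of the cattle assembly UMD3.1.1 counted from 1. The longest, chr14:27901836-27902789, spanned 954 bp. In control it held an H3K27ac peak of 201 bp and, beside it, an H3K9me3 peak of 199 bp. After butyrate 626 bp of it were covered by H3K27ac and 505 bp by H3K9me3, and H3K9ac covered none of it in either condition. The nearest butyrate Pol II peak was 1114 bp away. A site of 947 bp at chr14:22638309-22639255 carried H3K9ac as its only acetyl mark in both conditions, over 244 bp in control and 614 bp after butyrate. The control and butyrate H3K9ac peaks there shared no base. Butyrate H3K9me3 covered 560 bp of that site, including the place of the control H3K9ac peak.

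The site chr14:16534586-16535525 (940 bp) met peaks of all the other lists except butyrate Pol II. Butyrate H3K27ac covered it whole in a peak of 1984 bp, and its nearest butyrate Pol II peak lay 3141 bp away. The site chr5:98314092-98314850 (759 bp) was covered whole by H3K9ac in both conditions. H3K27ac covered 621 bp of it in control and all 759 bp after butyrate, and H3K9me3 covered 328 bp and 331 bp. At the other end of the range, chr14:83198865-83199624 (760 bp) carried control H3K9ac over 236 bp and control H3K27ac over 237 bp and met no peak of any butyrate list. The same held at chr5:11180464-11181204 (741 bp) and chr19:20031997-20032715 (719 bp), where the control acetylation was in each case a single H3K27ac peak of 199 bp.

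Most lost sites met an acetyl peak after butyrate. After butyrate 65.4% of the lost sites (3975, interval 64.2 to 66.6) met an H3K27ac peak, where 18.9% of all control Pol II peaks did. H3K9ac was met by 52.4% (51.2 to 53.7), where 15.2% of all control Pol II peaks met it. Neither mark was called at 1528 lost sites (25.1%), against a background of 76% among all control Pol II peaks. The acetyl marks after butyrate did not enter the rule, although all butyrate libraries came from the same lane. Control acetylation did enter it, and 13.4% of all control Pol II peaks carried any, so the rule sets part of the distance from that background. Of the lost sites with butyrate H3K27ac, 2905 had carried it in control and 1070 had not. For H3K9ac these numbers were 2480 and 706.

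The acetyl marks were nonetheless called less often at lost than at kept acetylated sites. Butyrate H3K27ac stood at 86.5% of kept sites, a difference of -21.1 percentage points (-23.1 to -18.9). Butyrate H3K9ac stood at 76.0% of kept sites, a difference of -23.5 points (-26.0 to -20.9). Kept sites with neither mark were 8.43%. Lost Pol II sites without control acetylation met butyrate H3K27ac at 10.4% and H3K9ac at 8.23%. Lost acetylated sites thus lay between these classes for both marks, and nearer to the kept ones. The rule sets part of this order, since lost and kept acetylated sites both carry control acetylation and the third class carries none. It also sets part of every difference between lost and kept sites, here and below. Kept sites were chosen by a butyrate Pol II peak, and 64.3% of those peaks lay at a butyrate acetyl peak.

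**Figure D1:**
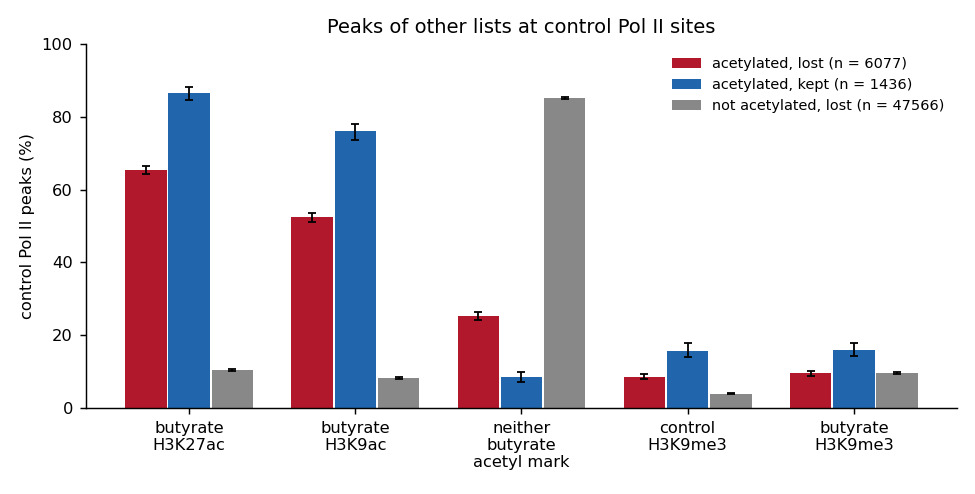
Share of control Pol II peaks (vertical axis, percent) that met a peak of another list, for 6077 acetylated sites that were lost, 1436 that were kept and 47566 lost sites without control acetylation. Error bars are 95% Wilson intervals. Butyrate H3K27ac stood at 65.4%, 86.5% and 10.4% of these classes, and butyrate H3K9me3 at 9.49%, 15.9% and 9.69%.

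Kept sites were longer and carried both control marks more often, so the comparison was repeated within classes of length and of control mark. Among peaks of the shortest length, 199 bp, the differences between lost and kept sites were -20.5 points for H3K27ac and -21.2 points for H3K9ac. In the longer classes they ran from -23.4 to -20.0 points for H3K27ac and from -25.2 to -22.6 points for H3K9ac. All 8 intervals lay below 0. The control mark moved the comparison further. Both marks were carried by 2196 lost sites (36.1%), H3K9ac alone by 1917 (31.5%) and H3K27ac alone by 1964 (32.3%), whereas 61.6% of kept sites carried both. Among sites with both marks the difference in butyrate H3K27ac was -8.73 points (-10.7 to -6.59) and that in H3K9ac was -14.1 points (-17.1 to -11.0). With H3K9ac alone they were -18.2 and -17.2 points, and with H3K27ac alone -20.1 and -21.8 points. The direction was the same in each class, and both differences were smallest in the class with both marks. Acetyl peak length was not among these classes, and control acetyl peaks were longer at kept sites. Counted by acetyl peak, the gap narrowed with length. In the shortest length class, butyrate H3K27ac met 54.7% of control H3K27ac peaks with a lost site and 74.8% with a kept site. At 1000 bp or more these shares were 99.2% and 99.3%. For H3K9ac they were 48.3% and 64.5%, then 94.6% and 97.7%.

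The control mark also ordered the outcome among the lost sites. Of those with both marks, 64.1% (62.1 to 66.1) had both after butyrate and 7.24% (6.23 to 8.40) had neither. With H3K9ac alone in control, 34.7% had both and 30.4% neither, and with H3K27ac alone 27.4% had both and 40.0% neither. Over all lost sites 2612 (43.0%) had both marks after butyrate, 1363 (22.4%) H3K27ac only and 574 (9.45%) H3K9ac only.

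Marks also appeared where they had not been called. H3K27ac was met after butyrate at 69.8% of the 4160 lost sites that carried it in control and at 55.8% of the 1917 that did not. H3K9ac was met at 60.3% of the 4113 that carried it and at 35.9% of the 1964 that did not. At kept sites the corresponding values were 89.6% and 74.0% for H3K27ac and 80.1% and 57.8% for H3K9ac.

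**Figure D2:**
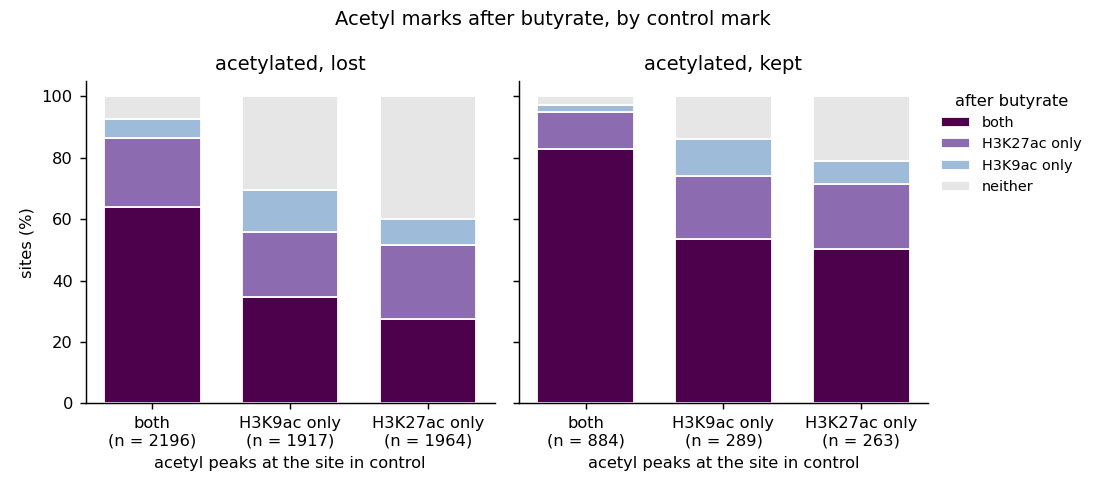
Acetyl peaks called after butyrate at lost sites (left) and kept sites (right), as stacked percentages of sites, by the acetyl peaks each site carried in control. Among lost sites the share with neither mark after butyrate was 7.24% where both marks were present in control, 30.4% with H3K9ac only and 40.0% with H3K27ac only.

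The peaks of the marks that stayed changed length in opposite directions. At the 2905 lost sites with H3K27ac in both conditions, the median peak over the site was 372 bp in control and 662 bp after butyrate (median log2 ratio 0.55), and 72.2% of these peaks were longer (70.6 to 73.8). At the 2480 lost sites with H3K9ac in both conditions the median went from 406 to 380 bp (median log2 ratio -0.08), and 45.2% were longer (43.3 to 47.2). The same directions held over all control peaks of each mark that met a butyrate peak, with median log2 ratios of 0.44 for H3K27ac and -0.10 for H3K9ac. Kept sites had longer peaks before and after, 588 and 944.5 bp for H3K27ac and 583 and 463 bp for H3K9ac. Marks that were not called again at lost sites had been short, with medians of 238 bp for H3K27ac and 294 bp for H3K9ac.

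Around the lost sites acetylation formed a narrow rise on a raised plateau. Control acetylation at the centre is raised by the rule, which asks for a control acetyl peak over each site, so control and butyrate shares there are a description. At the centre of the Pol II peak 50.1% of lost sites lay under control H3K27ac and 57.9% under butyrate H3K27ac. At 500 bp upstream on the coordinate axis these shares were 18.3% and 31.2%, and at 5 kb they were 9.07% and 16.7%. Centres lay under control H3K9ac at 53.0% and butyrate H3K9ac at 41.1%, while at 5 kb these shares were 7.95% and 7.85%. Butyrate H3K27ac was above control at each of these distances. Around lost sites without control acetylation, butyrate H3K27ac stood at 8.17% at the centre and 4.07% at 5 kb.

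**Figure D3:**
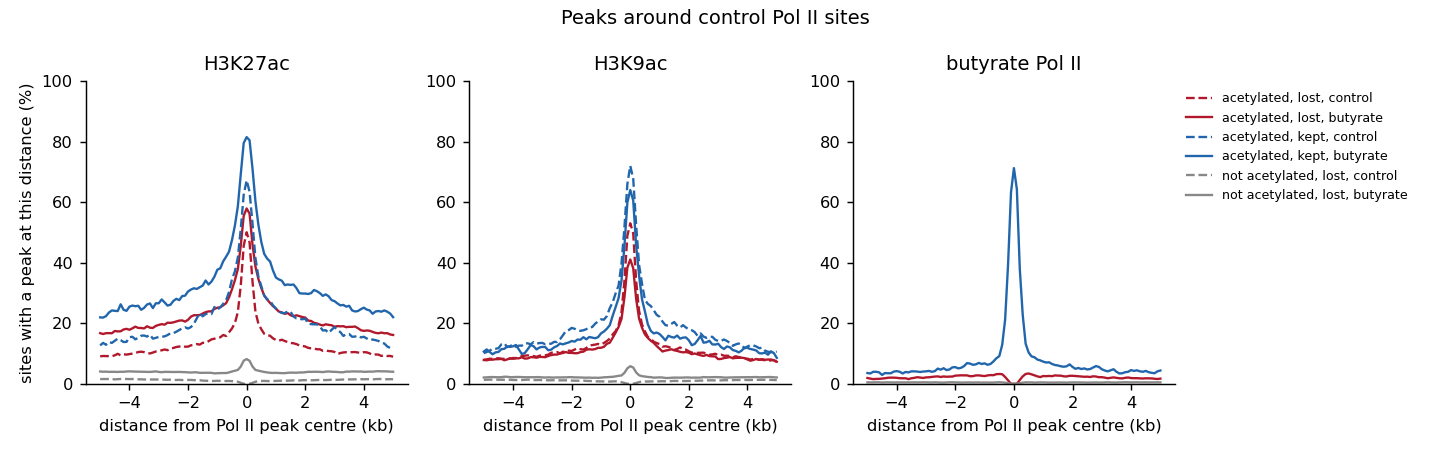
Share of sites (vertical axis, percent) covered by a peak at each distance from the centre of the control Pol II peak (horizontal axis, kb), in control (dashed) and after butyrate (solid). Lost sites lie below kept sites for both acetyl marks at the centre (57.9% against 81.5% for butyrate H3K27ac). Zero butyrate Pol II at the centre of lost sites is set by the rule, which also raises control acetylation at the centre.

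Butyrate Pol II peaks were called close to many lost sites. The median gap from a lost site to the nearest butyrate Pol II peak was 5927 bp (quartiles 1616 and 19591), and it was 36294.5 bp from lost sites without acetylation. A butyrate Pol II peak lay within 500 bp of 706 lost sites (11.6%), within 1000 bp of 1099 (18.1%) and within 10000 bp of 3707 (61.0%). Among unacetylated lost sites 3.45% had one within 1000 bp. The gap followed the fate of acetylation, with medians of 3389 bp at sites with both marks after butyrate, 5338 bp with H3K27ac only, 8683.5 bp with H3K9ac only and 12969.5 bp with neither. Since acetylated DNA held most butyrate Pol II peaks, nearness to them and to acetylation are tied, and their parts were not tested. The farthest site, chrX:68668312-68668510, lay 3041.46 kb from any butyrate Pol II peak. It carried both marks in control and met butyrate H3K27ac over 108 of its 199 bp.

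Joining the control H3K9ac and H3K27ac peaks that overlapped gave 120316 acetylated regions, of which 6161 held a lost site. These regions had a median length of 336 bp, against 564.5 bp for regions with a kept site and 297 bp over all. A butyrate Pol II peak stood elsewhere in 435 of them (7.06%), and 1455 (23.6%) met no butyrate acetyl peak anywhere. Of the 112777 regions with no control Pol II, 12733 (11.3%) held a butyrate Pol II peak. The share was lower with a lost site in each length class, for example 0.789% against 5.71% in the shortest and 32.6% against 39.1% in regions of 1000 bp or more. Among those of 2000 bp or more the interval of the difference included 0. The rule sets part of this, since it bars butyrate Pol II over the lost site itself. The longest region with a lost site, chr4:95462258-95469543 (7286 bp), held 2 of them, chr4:95468570-95468907 and chr4:95468962-95469160, and 2050 bp of butyrate Pol II peaks elsewhere. In that region the control H3K27ac peak ran unbroken over 7286 bp, whereas the butyrate H3K27ac peak over both sites was 846 bp. A region of 6240 bp on chromosome 1 held the lost site chr1:42821457-42821755 and 3499 bp of butyrate Pol II, of which the nearest peak lay 12 bp from the site.

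Viewed from the acetyl peaks, those with a lost site were called again more often than those with no Pol II. A butyrate H3K27ac peak met 71.0% (69.6 to 72.3) of the 4173 control H3K27ac peaks that held a lost site, 89.6% of the 1142 that held a kept site and 65.3% of the 89288 without control Pol II. The background over all control H3K27ac peaks was 65.9%. The difference between peaks with a lost site and those without Pol II was 5.62 points (4.19 to 7.01). For H3K9ac the shares were 65.1% of 4097, 83.5% of 1167 and 47.0% of 68850, with a background of 48.6% and a difference of 18.1 points (16.6 to 19.6).

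Longer acetyl peaks were called again more often whatever they held. Within 4 classes of acetyl peak length the H3K27ac difference was 2.26, 4.85, 6.33 and 1.08 points from the shortest class to the longest, and the interval of the last included 0. The H3K9ac differences were 13.2, 14.8, 14.5 and 5.26 points. The overall H3K27ac difference depended on the definition. It was 1.84 points (0.21 to 3.44) when lost sites needed to lie more than 1 kb from butyrate Pol II. Without chromosomes 5 and 14 it was 9.04 points. It was 13.1 points when overlaps had to cover 50% of the Pol II peak and butyrate peaks 50% of the control H3K27ac peak. With both marks required at lost sites it was 22.2 points. For H3K9ac the last of these settings gave 29.5 points. In that setting the acetyl peaks without Pol II were not required to meet the other mark, so the groups were not matched for it.

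**Figure D4:**
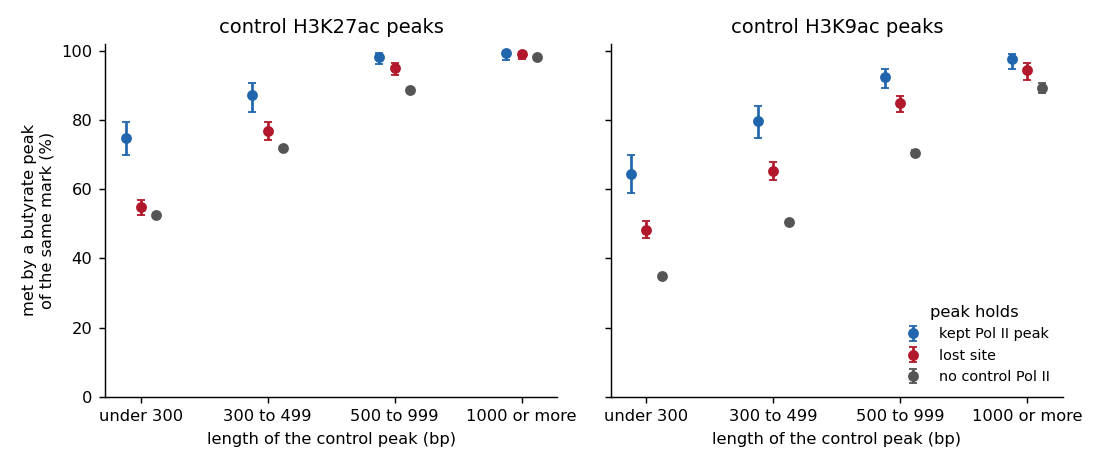
Share of control H3K27ac peaks (left) and H3K9ac peaks (right) met by a butyrate peak of the same mark (vertical axis, percent), by length of the control peak and by the Pol II peak it held, with 95% Wilson intervals. In the shortest class H3K9ac peaks were met in 48.3% of cases with a lost site, 64.5% with a kept site and 35.0% with no control Pol II, and the classes lie closest together among peaks of 1000 bp or more.

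H3K9me3 was found at few lost sites. In control 523 of them (8.61%, 7.93 to 9.34) met an H3K9me3 peak, against 15.7% of kept sites, 3.95% of unacetylated lost sites and 4.97% of all control Pol II peaks. The difference from kept sites was -7.13 points (-9.22 to -5.20). It was -15.9 points among Pol II peaks of 350 bp or more, and its interval included 0 in the 2 shortest of 4 length classes. After butyrate 9.49% of lost sites met H3K9me3, close to the 10.1% of all control Pol II peaks and -0.20 points from the unacetylated lost sites (interval -0.96 to 0.61). That closeness was of all chromosomes pooled. On chromosomes 5 and 14 the share was 20.4% of lost sites, against 19.5% of all control Pol II peaks. On the other chromosomes it was 6.02% (5.36 to 6.74), against 7.63%. Within the lost sites butyrate H3K9me3 was met by 16.0% (14.2 to 17.9) of those with neither acetyl mark after butyrate, 12.9% with H3K9ac only, 6.09% with H3K27ac only and 6.74% with both. This pattern was not particular to lost sites. At kept sites the shares were 46.3% with neither mark, 34.2% with H3K9ac only, 9.38% with H3K27ac only and 12.5% with both. The 523 lost sites with control H3K9me3 met butyrate H3K9me3 at 23.3%, against 8.19% of the other lost sites, and butyrate H3K27ac at 58.7%, against 66.0%. Their butyrate H3K9ac share was 56.4%, against 52.1%, and the interval of that difference included 0.

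Lost sites were found on all 30 nuclear chromosomes, at the highest density on chromosomes 5 and 14. Chromosome 5 held 958 and chromosome 14 held 514, together 24.2% of the lost sites, 32.4% of the kept ones and 20.4% of all control Pol II peaks. Per Mb, chromosome 5 held 3.46 times the average over all chromosomes, against 2.71 times for all control Pol II peaks and 1.51 times for control H3K27ac peaks. On chromosome 14 these densities were 2.66, 2.55 and 1.20. The X chromosome held 31 lost sites, at 0.091 times the average, against 0.119 times for all control Pol II peaks and 0.299 times for control H3K27ac peaks. The part of DNA copy number in these densities was not tested, since no list measures it.

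The share of acetylated Pol II sites that were lost ran from 64.6% on chromosome 29 to 90.9% on chromosome 13, with a median of 82.2% over chromosomes. Butyrate H3K27ac was lower at lost than at kept sites on 30 of 30 chromosomes and H3K9ac on 29 of 30, the exception being chromosome 29. On chromosomes 5 and 14 butyrate H3K27ac stood at 55.7% of lost and 82.8% of kept sites, and elsewhere at 68.5% and 88.3%. Control H3K9me3 stood at 17.7% of lost sites on chromosomes 5 and 14 and 5.71% elsewhere. The difference between lost and kept sites in control H3K9me3 was -2.12 points (-6.41 to 1.81) on the 2 chromosomes and -8.09 points (-10.5 to -5.94) elsewhere. Of all control Pol II peaks, 11.4% met control H3K9me3 on the 2 chromosomes and 3.32% elsewhere. For butyrate H3K27ac these background shares were 17.4% and 19.3%.

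**Figure D5:**
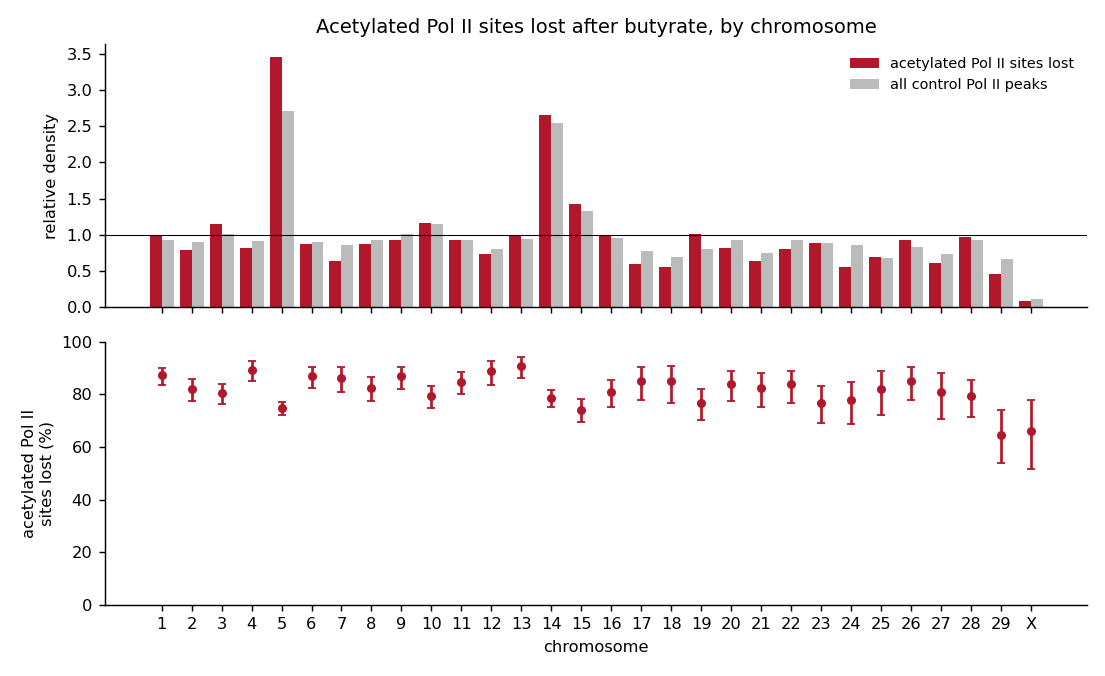
Top, lost sites and all control Pol II peaks per Mb of each chromosome, relative to the average over all chromosomes (line at 1). Bottom, share of acetylated control Pol II peaks that were lost (percent) with 95% Wilson intervals. Lost sites reach a relative density of 3.46 on chromosome 5 and 2.66 on chromosome 14, and the share lost lies between 64.6% and 90.9%.

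Lost sites were unevenly spread within chromosomes. Their spread was not compared with that of all control Pol II or acetyl peaks, so it is a description only. Lost sites fell in 1570 of 2677 windows of 1 Mb, and 115 windows held 10 or more, with 1598 sites among them. The fullest were chr5:60000001-61000000 and chr15:43000001-44000000 with 31 each. In the first, 27 of the 31 met butyrate H3K27ac, 23 met butyrate H3K9ac, 7 further acetylated sites were kept and 47 butyrate Pol II peaks were called. In the second the numbers were 25, 23, 12 and 84. These windows also held 81 and 98 control Pol II peaks and 153 and 191 control H3K27ac peaks. The next were chr5:38000001-39000000 with 30, chr5:18000001-19000000 with 29 and chr5:80000001-81000000 with 28. Neighbouring lost sites lay a median of 89.98 kb apart, and 1008 of 6047 neighbouring pairs (16.7%) within 10 kb.

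The limits of the rule were a 1 bp acetyl overlap and the absence of butyrate Pol II. An acetyl overlap of at most 50 bp carried 397 members, and 26.9% of the 4160 lost sites with control H3K27ac had under 50% of their length covered by the H3K27ac peak. An overlap of at most 10 bp carried 59 members, down to 1 bp, as at chr5:4915949-4916178, chr5:19987215-19987467 and chr8:39669905-39670103, while 83 lost Pol II peaks outside the rule came within 10 bp of an acetyl peak. A butyrate Pol II peak lay within 50 bp of 103 members and within 10 bp of 20. One of these, chr13:20246873-20247078, touched such a peak with a gap of 0 bp, and would leave the set if starts were counted from 1. Among kept sites 15 overlapped butyrate Pol II by at most 10 bp, the least being 1 bp at chrX:118743209-118743407.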

How the data were processed

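ChIP-seq was run on 8 MDBK libraries, beside 1 input library that has a label and was not analysed here. The labels name Trim Galore 0.4.1 without its role. Per the study's methods, the authors removed reads failing the sequencer's quality filter, aligned the rest to the UMD3.1.1 cattle assembly with BWA and called peaks per library with MACS2 against the input. The authors deposited chromosome, start and end of each peak with no signal, score or p-value, and read counts per library were not used here. All lists were compared with the same input.

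Starts were read as counted from 0. Lists were intersected in Python 3.11.15 with numpy 2.4.6 and pandas 2.3.3, with an overlap of at least 1 bp, and figures were drawn with matplotlib 3.10.9. The overlap and gap functions were tested on simulated data. Mitochondrial peaks (15 of control Pol II) were left out. Shares carry Wilson and differences Newcombe 95% intervals. Regions were named by rule: the 10 longest members, the 3 longest of each acetylation outcome, the 5 in the longest acetylated regions, the 5 farthest from butyrate Pol II, the 5 fullest windows of 1 Mb and those nearest the limits of the rule. The sites described were taken from that set. Members, classes and alternatives were chosen with earlier results of these data known. The gene table at hand is of another assembly, so no gene was assigned and no sequence was read.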

Additional observations from a re-analysis of the deposited data

How the results depend on the processing

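Of 117 values recomputed under alternatives, 72 stayed within the counting interval of the value reported (quartiles for the median length, a factor of 1.5 for the number of sites) and 45 moved beyond it. A change of sign, possible only for the differences and not for counts, shares, lengths or densities, was found for 0 values. No paired analysis was possible because a group is 1 library. Leaving out chromosome X, or counting starts from 1 (chosen after seeing the data), moved none of them. The moved values follow, with differences in percentage points.

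Without Pol II peaks of the shortest length, 82.1% of acetylated sites were lost, 53.9% of lost sites met butyrate H3K9ac, 9.68% control H3K9me3 and 10.9% butyrate H3K9me3, 5.65% of their regions held butyrate Pol II, and relative densities were 4.01 on chromosome 5 and 3.06 on chromosome 14. With overlaps of at least 50%, the values were 85.1% lost, 47.3% with H3K9ac, 26.7% with neither mark, 6.05% with control and 7.24% with butyrate H3K9me3, 13.6% of regions with butyrate Pol II, and an H3K27ac retention difference of 13.1. With no butyrate Pol II allowed within 1 kb, 66.3% were lost, 61.6% met H3K27ac, 49.1% H3K9ac and 28.4% neither, the H3K27ac difference from kept sites was -23.2, 0.495% of regions held butyrate Pol II, and retention differences were 1.84 (H3K27ac) and 15.02 (H3K9ac).

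With both marks required, 2196 sites (71.3%) were lost, 86.3% met H3K27ac, 70.6% H3K9ac, 7.24% neither and 7.15% butyrate H3K9me3, differences from kept sites were -8.73 and -14.1, 14.2% of regions held butyrate Pol II, densities were 3.21 and 2.35, and retention differences 22.2 and 29.5. Without chromosomes 5 and 14, 82.6% were lost, 68.5% met H3K27ac, 23.4% neither mark, 5.71% control and 6.02% butyrate H3K9me3, and the H3K27ac retention difference was 9.04. Without Pol II peaks at control H3K9me3, 82.1% were lost, 8.19% met butyrate H3K9me3, and densities were 3.095 and 2.43. The causes were not tested. With no peak heights and 1 library per group, a weak peak and an absent one cannot be told apart.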

Other observations

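By number of lists, 1063 lost sites (17.5%) met a peak of 1 list beside control Pol II, the least the rule allows. A further 1506 (24.8%) met 2, 1814 (29.9%) met 3, 1468 (24.2%) met 4, 211 (3.47%) met 5 and 15 (0.247%) met all 6 others that the rule permits. With control Pol II counted, 6 lists were met by 3.47% of lost and 46.5% of kept sites, which by definition also met butyrate Pol II. Of unacetylated lost sites, 74.4% met control Pol II alone. Of the 15 sites, 14 lay on chromosomes 5 and 14, and 12 of these on chromosome 5. The 2 chromosomes held 24.2% of all lost sites and 20.4% of all control Pol II peaks. Gaps from the 15 sites to the nearest butyrate Pol II peak ran from 266 bp at chr14:63791249-63791629 to 36287 bp at chr1:44907712-44908074.

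Control H3K27ac peaks covered 33.0% of the lost sites they met from end to end and 52.8% of the kept ones, and for H3K9ac these shares were 41.7% and 56.9%. The control H3K27ac peak over a site had a median length of 308 bp at lost and 523 bp at kept sites. Over the summed length of lost sites, control H3K27ac covered 47.2% of bases and butyrate H3K27ac 55.7%, while control H3K9ac covered 50.2% and butyrate H3K9ac 39.4%. At kept sites these values were 63.1% and 78.9% for H3K27ac and 67.8% and 60.6% for H3K9ac. Control acetylation is required in both classes, which raises the control values, so the changes are a description. The whole H3K9ac list covered 28.9 Mb in control and 37.0 Mb after butyrate.

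In the other direction, 18190 of the 20092 butyrate Pol II peaks at a butyrate acetyl peak (90.5%) met no control Pol II peak, and 11971 of those 18190 (65.8%) lay at a control acetyl peak.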
